A study of Mus musculus with 45 samples.

Results

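The oocyte genes Oosp1, Oosp2 and Oosp3, Omt2a, and Oas1c, Oas1d and Oas1e were followed from the fully grown oocyte (FGO) to the late two-cell embryo, in control females and in females whose oocytes express histone H3.3 with lysine 36 replaced by methionine (K36M). They were taken by symbol from the deposited expression table, and all 7 were found among its 26214 genes. The table holds TPM values, transcript levels that are corrected for gene length and sum to 1000000 in each library.

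Control females carried the H3f3b K36M-flox allele without Cre, and K36M females carried the same floxed allele with Gdf9-Cre, so the mothers of all groups shared the floxed allele. The mothers were heterozygous, so an embryo of either group may or may not have inherited the allele, which is recombined in the K36M oocytes, and the embryos' own genotypes are not in the labels. The Gdf9 promoter drives Cre in oocytes, and the tagged mutant histone is made from 1 copy of H3f3b. The females were of a mixed C57BL/6 and 129 strain background and 3 to 4 weeks old. There were 3 FGO libraries per genotype, each of pooled FGOs, and 8 single late two-cell embryos per genotype, collected 31 to 32 hours after fertilization in vitro of superovulated oocytes with JF-1 sperm. Control embryo 4 was set aside in the study for a technical problem and is left out of the main comparisons here, which leaves 7 control and 8 K36M oocyte-derived embryos. FGOs and embryos differ in stage, but also in pooling, in amplification, in superovulation and in the sperm genome, and the parts of these in a difference between stages cannot be told apart. The labels do not say that the libraries of a group came from separate females, so p-values measure the spread between these libraries.

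The Oosp genes encode small secreted proteins of the oocyte that share a fold with the placental protein Plac1. Omt2a and its neighbour Omt2b encode small proteins of oocytes and early embryos whose function is poorly known. The Oas1 genes belong to the oligoadenylate synthetase family, which in somatic cells is induced by interferon: when a synthetase binds double-stranded RNA it makes short oligoadenylates (2-5A) that act as a signal in the antiviral response. The mouse has many Oas1 copies. Oas1d is the copy known for its expression in oocytes, and its protein lacks synthetase activity. In mice, most transcripts stored in the oocyte are removed between meiotic maturation and the two-cell stage, when the embryonic genome is activated.

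The genes lie in 3 clusters. In the mouse assembly GRCm38.p6 (mm10), Oosp2 lies at chr19:11647284-11660559 and Oosp1 at chr19:11667460-11691051, both on the minus strand, and Oosp3 follows on the plus strand at chr19:11697055-11711858. Omt2a lies at chr9:78311972-78314797 on the minus strand and Omt2b at chr9:78328030-78329620 on the plus strand. Oas1e (chr5:120786312-120795530, minus strand), Oas1c (chr5:120800194-120812540, minus strand) and Oas1d (chr5:120914818-120921648, plus strand) lie within the array of Oas genes on chromosome 5.

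The bases upstream of the start sites are shown for the members with an entry in the RefSeq promoter table of GRCm38.p6, because the genes of a family were high in the same oocytes while Omt2a later moved opposite to the others. An entry was found for 4 of the 7 members. Oosp3, Oas1d and Oas1e had none. Each line gives the 250 bases before the annotated start, 5′ to 3′ on the gene's strand, with motif matches in capitals. The windows are chr19:11691052-11691301 for Oosp1, chr19:11660560-11660809 for Oosp2, chr9:78314049-78314298 for Omt2a, all on the minus strand, and chr9:78327780-78328029 on the plus strand for Omt2b. The Omt2a window lies in an intron of a longer annotated transcript that begins at position 78314797.
Oosp1: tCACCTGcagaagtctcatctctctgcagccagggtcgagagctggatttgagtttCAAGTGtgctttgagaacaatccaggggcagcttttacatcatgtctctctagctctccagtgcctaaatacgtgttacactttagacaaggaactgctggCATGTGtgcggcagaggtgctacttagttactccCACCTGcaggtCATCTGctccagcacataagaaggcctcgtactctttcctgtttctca
Oosp2: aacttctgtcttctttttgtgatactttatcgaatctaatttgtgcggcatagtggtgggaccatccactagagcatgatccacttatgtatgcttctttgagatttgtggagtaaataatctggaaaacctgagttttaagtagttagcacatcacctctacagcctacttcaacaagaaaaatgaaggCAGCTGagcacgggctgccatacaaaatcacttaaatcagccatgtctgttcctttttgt
Omt2a: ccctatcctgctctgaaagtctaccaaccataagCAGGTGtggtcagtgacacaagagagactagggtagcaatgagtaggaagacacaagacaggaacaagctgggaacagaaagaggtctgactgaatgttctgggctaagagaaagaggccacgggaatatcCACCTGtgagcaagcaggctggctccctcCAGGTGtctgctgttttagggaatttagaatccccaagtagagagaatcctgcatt
Omt2b: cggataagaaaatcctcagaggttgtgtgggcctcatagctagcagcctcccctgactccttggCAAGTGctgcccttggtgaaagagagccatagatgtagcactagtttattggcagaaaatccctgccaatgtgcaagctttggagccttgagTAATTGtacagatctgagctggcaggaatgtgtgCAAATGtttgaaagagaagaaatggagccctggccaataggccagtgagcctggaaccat

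The motifs searched on both strands were TATAAA (the TATA box), TAATTA and TAATTG (sites of the oocyte homeobox factor Nobox), CANNTG (the E-box, bound by basic helix-loop-helix factors such as Figla) and the core of the interferon response element, which is GAAA, any 2 bases, and GAAA again. The E-box was the motif in capitals in the Oosp1, Oosp2 and Omt2a windows. It occurred 5 times upstream of Oosp1, 3 times upstream of Omt2a and 1 time upstream of Oosp2, and it is common, occurring in 66.2% of 32851 promoter windows. The Omt2b window held 2 E-boxes and 1 TAATTG, a motif found in 7.17% of windows, 94 bases before the start. TATAAA (12.4% of windows) and TAATTA (4.84%) were in none of the 4 member windows. The Omt2a and Omt2b windows shared 51.7% of 211 aligned bases, whereas their transcripts shared 90.1% of 709 aligned bases.

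Oas1c is shown beside Oas1a, a copy that was nearly silent in these oocytes, because both windows hold the interferon motif. The windows are chr5:120812515-120812764 and chr5:120907526-120907775, both on the minus strand, and the Oas1c window overlaps the start of Oas1b on the opposite strand.
Oas1c: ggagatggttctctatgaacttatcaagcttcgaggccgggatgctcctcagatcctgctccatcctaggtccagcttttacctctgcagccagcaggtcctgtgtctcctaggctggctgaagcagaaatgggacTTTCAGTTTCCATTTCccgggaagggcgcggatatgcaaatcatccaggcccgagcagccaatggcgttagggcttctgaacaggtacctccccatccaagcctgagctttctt
Oas1a: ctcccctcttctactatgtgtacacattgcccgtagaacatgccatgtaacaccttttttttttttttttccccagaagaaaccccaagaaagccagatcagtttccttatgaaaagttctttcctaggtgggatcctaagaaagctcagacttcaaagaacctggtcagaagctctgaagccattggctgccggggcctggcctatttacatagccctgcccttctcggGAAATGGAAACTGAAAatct

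The interferon motif occurred in 2.98% of windows, and as overlapping pairs upstream of Oas1c and Oas1a. The first match began 114 bases before the start of Oas1c, on the strand opposite to the gene, and 20 bases before the start of Oas1a, on the gene's own strand. The 16 bases of the pair were the same in both, GAAATGGAAACTGAAA when read on the motif's strand, and this run was found in 7 windows, those of Oas1a, Oas1c, Oas1g, Apol9a and Apol9b. The pair in the Oas1c window also lies close to the annotated start of Oas1b, position 120812635, and on that gene's strand. It cannot therefore be assigned to Oas1c rather than Oas1b, which had no promoter entry of its own. A match is a description of the letters and does not show that a factor was bound.

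In control FGOs, the 7 genes together made up 0.552% to 0.562% of all TPM. Oosp1 had the highest level, 1768 ± 58.9 TPM (SD, n = 3), which placed it 35th of all genes by mean. Its 3 libraries were at 1790, 1702 and 1814 TPM. Oas1e followed at 1109.8 ± 42.1 TPM, Oas1d at 803 ± 65.6 TPM, Oas1c at 667 ± 43.3 TPM, Oosp3 at 538 ± 41.1 TPM, Oosp2 at 473 ± 52.6 TPM and Omt2a at 193 ± 8.90 TPM. Neighbours in this order did not overlap between libraries, other than Oosp3 and Oosp2.

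The levels were tight between pools of control FGOs. The coefficient of variation ran from 3.33% for Oosp1 to 11.1% for Oosp2 in control FGOs, and from 7.27% for Oas1c to 19.9% for Oosp1 in K36M FGOs. On the log2(TPM + 1) scale, each member's SD in control FGOs lay below the median SD of 0.185 over 13855 expressed genes. In K36M FGOs that of Oosp1, 0.286, lay above the median of 0.245, and those of the other members lay below it. Embryos were far more scattered, with a median SD of 1.26 over all expressed genes in control embryos and 1.45 in K36M oocyte-derived embryos. The 10 oocyte markers (Zp and similar genes) summed to 16349 to 16653 TPM in control FGOs and 1891 to 2842 TPM in control embryos. Markers of granulosa cells, which surround the oocyte, summed to 132 to 148 TPM in control FGOs, with 10 of 10 at 1 TPM or more, to 139 to 216 TPM in K36M FGOs, to 144 to 259 TPM in control embryos and to 77.8 to 426 TPM in K36M oocyte-derived embryos. Markers of blood and immune cells summed to at most 4.54 TPM in control FGOs, 1.81 TPM in K36M FGOs and 12.0 TPM in control embryos, and to 0 to 278 TPM in K36M oocyte-derived embryos. The part of these cells in the results was not tested.

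**Figure D1:**
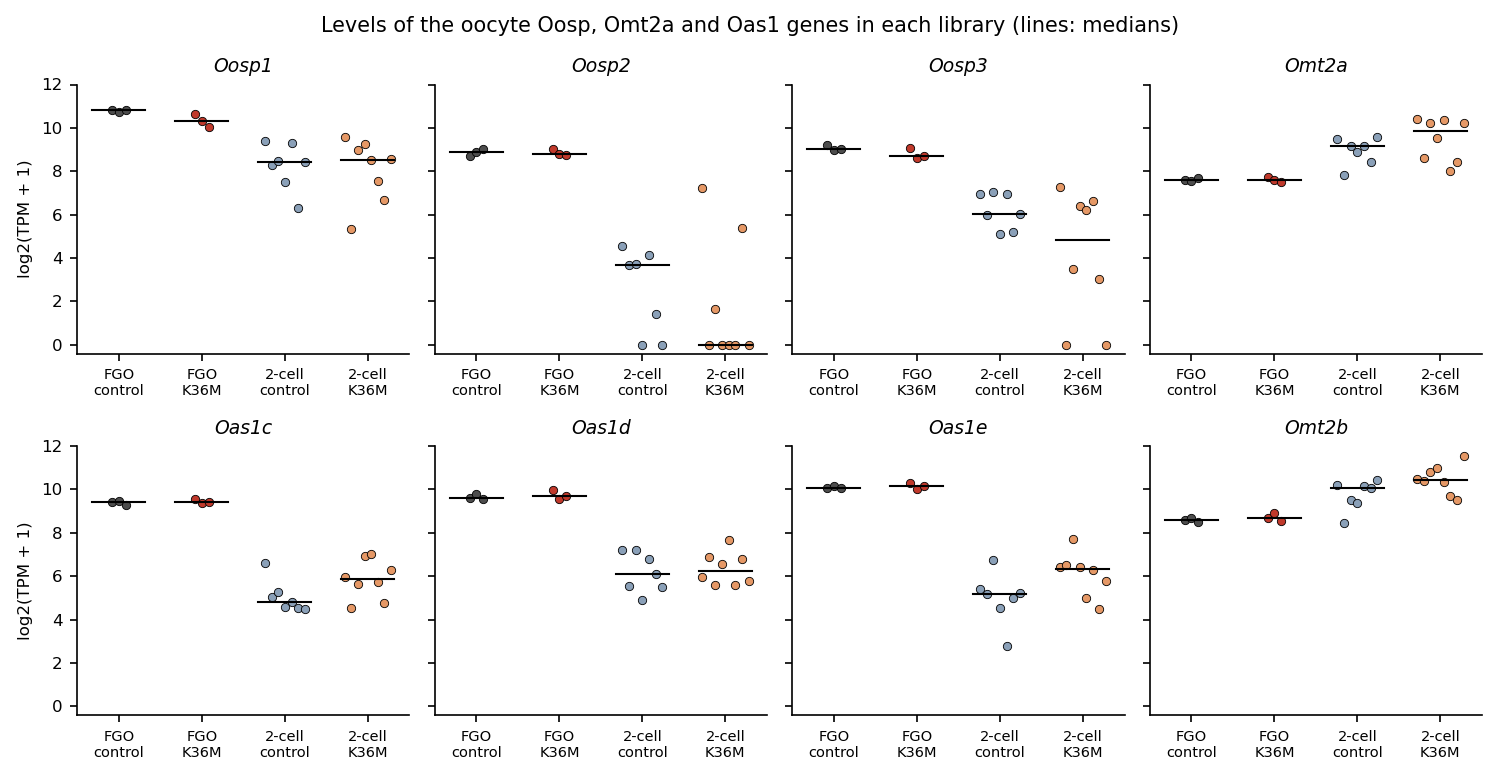
Levels of the 7 genes and of Omt2b on the log2(TPM + 1) scale in 3 control FGO libraries, 3 K36M FGO libraries, 7 control embryos and 8 K36M oocyte-derived embryos, with 1 point per library and lines at the medians. Of the 7 members, 6 were lower in every embryo than in every FGO library of the same genotype, and Omt2a was higher.

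Most neighbouring genes were far lower. Of 16 other genes within 50 kb that the table lists, 12 had a mean of at least 1 TPM in control FGOs, and 3 reached 100 TPM. These 3 were Oas1h at 435 TPM, Omt2b at 386 TPM and Rph3a, a synaptic vesicle protein gene next to Oas1d, at 115 TPM. Beside the Oosp genes, Ms4a2, Ms4a3, Ms4a6d and Cblif were at 1.45, 3.63, 8.43 and 1.67 TPM. Beside Omt2a, the glutathione transferase genes Gm10639 and Gsta2 were at 26.0 and 8.61 TPM, and beside the Oas1 members Oas1f, Oas3 and Oas1b were at 40.3, 9.79 and 9.30 TPM. The remaining 4 neighbours, Gm3776, Oas1a, Oas1g and Oas2, were below 1 TPM.

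The first comparison asked what became of the transcripts between the control FGO and the control two-cell embryo. Oosp1, Oosp2, Oosp3, Oas1c, Oas1d and Oas1e fell, and Omt2a rose. These are changes in a gene's share of a library's RNA, and TPM does not give transcript per oocyte or embryo. All 7 passed the adjusted threshold (limma, Benjamini-Hochberg over 16914 genes, adjusted p below 0.05), where 30.5% of all genes tested did, 15.5% lower and 15% higher. In all 7 members the embryos did not overlap the FGOs, as in 32.7% of all genes. The median difference over all genes was 0.08 on the log2 scale and that of the members was -3.47.

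Among the secreted Oosp proteins' genes, Oosp2 fell most. It was at 417, 480 and 522 TPM in the 3 control FGO libraries and at 22.3, 11.7, 12.1, 0, 16.4, 1.67 and 0 TPM in control embryos 1, 2, 3, 5, 6, 7 and 8. Every embryo lay far below the FGOs, and 2 were listed at 0. The difference in log2(TPM + 1) was -6.39 (SE 1.01, limma adjusted p = 0.000428), lower than in all but 0.0355% of genes tested. A 0 in these embryos need not mean absence: of 2239 genes above 100 TPM in every control FGO library, 2 to 74 were listed at 0 in a control embryo, and 24 to 133 in a K36M oocyte-derived embryo.

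Oosp1 remained the most abundant of the 3. It was at 683, 312, 354, 184, 626, 77.4 and 344 TPM in the same 7 embryos, 4.80-fold below the FGOs by the ratio of means (log2 difference -2.54, SE 0.52, limma adjusted p = 0.00282). Oosp3 was at 122, 62.2, 130, 33.7, 124, 36.3 and 64.9 TPM, with a log2 difference of -2.89 (SE 0.44, limma adjusted p = 0.000339). The highest embryo of each gene stood below its lowest FGO library, which was at 1702 TPM for Oosp1 and 507 TPM for Oosp3.

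The Oas1 members fell as well, with differences larger in size than those of Oosp1 and Oosp3, though this was not tested between the families. Oas1e was at 1086, 1158 and 1085 TPM in the control FGOs and at 40.9, 34.8, 107.5, 22.3, 5.83, 31.2 and 36.9 TPM in the embryos, a 27.8-fold ratio of means (log2 difference -5.13, SE 0.61, limma adjusted p = 4.82e-05). Oas1c was at 674, 706 and 620 TPM in the FGOs and at 96.5, 31.4, 38.1, 23.1, 27.1, 21.9 and 21.2 TPM in the embryos, an 18.0-fold ratio (log2 difference -4.34, SE 0.43, limma adjusted p = 1.07e-05). Oas1d was at 783, 877 and 750.5 TPM in the FGOs and at 148, 45.8, 145, 28.7, 110.4, 68.2 and 43.7 TPM in the embryos, a 9.53-fold ratio (log2 difference -3.47, SE 0.48, limma adjusted p = 0.000157). No embryo reached the lowest FGO value of any of the 3 genes.

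Omt2a, the oocyte maturation gene, moved the other way. It was at 190, 186 and 203 TPM in the control FGOs and at 723, 226, 579, 474, 569, 343 and 760.0 TPM in the embryos. All 7 embryos were above the highest FGO library, embryo 2 by the smallest margin. The mean rose 2.72-fold (log2 difference 1.34, SE 0.33, limma adjusted p = 0.00881), and Omt2a became the most abundant of the 7 genes, at 525 ± 193 TPM (SD, n = 7) against 369 ± 219 TPM for Oosp1, although the libraries of these neighbours in the order overlapped. With the replicate number as a block the adjusted p of Omt2a was 0.0870. In the exact permutation test of each member on its own (two-sided, 3 FGO libraries against 7 embryos), p was 0.0167, the smallest this design allows.

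**Figure D2:**
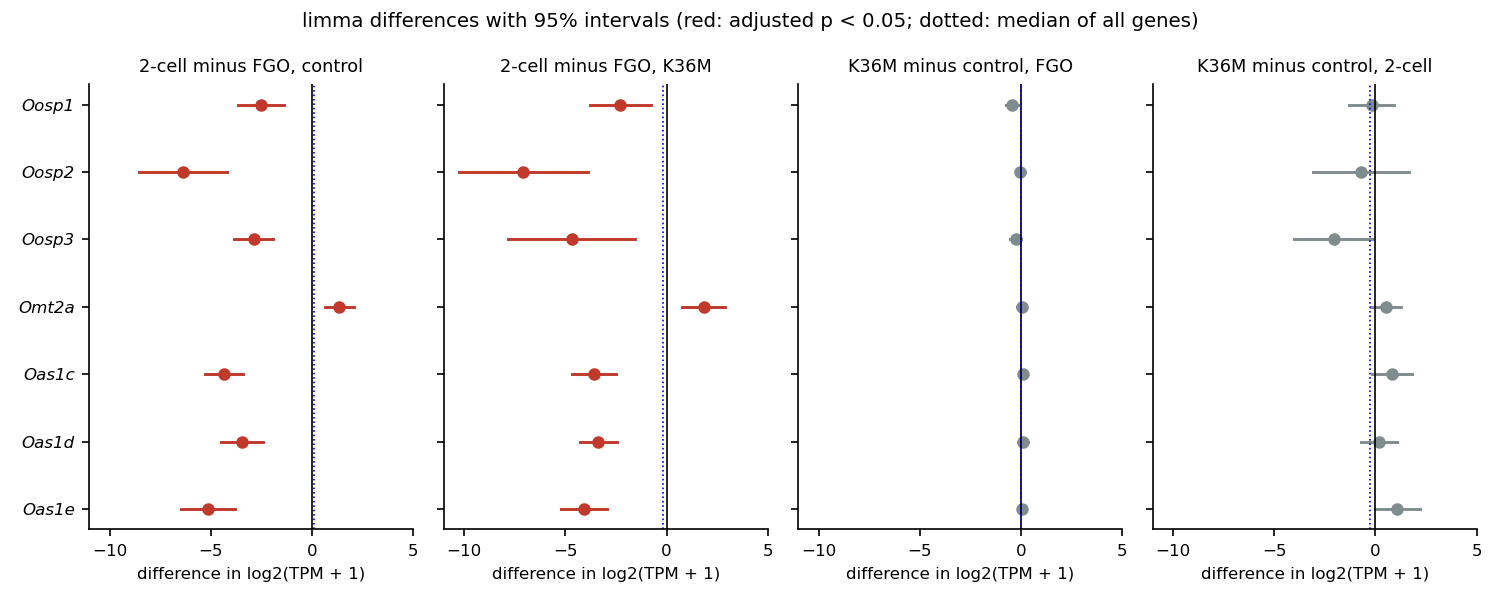
Differences in log2(TPM + 1) for the 7 genes in 4 comparisons, with 95% intervals from limma; red marks an adjusted p below 0.05, and the dotted line is the median of all genes. Both stage comparisons are red for all 7 genes, from -7.08 for Oosp2 to 1.85 for Omt2a, and the genotype comparisons are grey.

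The same comparison within K36M gave the same directions. In K36M oocyte-derived embryos against K36M FGOs, 6 members fell and Omt2a rose, and all 7 passed the adjusted threshold, where 25.3% of 16677 genes did (15.4% lower, 9.86% higher). None of the members overlapped between the groups, as in 26.3% of genes tested, and the exact permutation p was 0.0121 for each, again the smallest possible. The median over all genes was -0.16 on the log2 scale.

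Oosp2 was at 517, 444 and 433 TPM in the K36M FGOs and was listed at 0 in 5 of the 8 embryos, with 148, 2.14 and 40.2 TPM in embryos 1, 3 and 7 (log2 difference -7.08, SE 1.48, limma adjusted p = 0.00311). Oosp3 was at 537, 396 and 416 TPM in the FGOs and at 152, 0, 10.1, 83.8, 73.5, 97.1, 7.10 and 0 TPM in the embryos (log2 difference -4.68, SE 1.47, limma adjusted p = 0.0304). Oosp1 was at 1587, 1278 and 1068 TPM in the FGOs and at 767, 39.7, 496, 608, 365, 190, 102 and 372 TPM in the embryos (log2 difference -2.28, SE 0.71, limma adjusted p = 0.0294). For each of these genes the highest embryo lay below the lowest FGO library.

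Omt2a was at 214, 193 and 183 TPM in the K36M FGOs and at 1361, 388, 1204, 731, 1309, 257, 340 and 1215 TPM in the embryos. Its mean rose 4.32-fold (log2 difference 1.85, SE 0.50, limma adjusted p = 0.0139), and it exceeded Oosp1 in 8 of 8 embryos. Oas1c, Oas1d and Oas1e fell, with log2 differences of -3.60, -3.37 and -4.08 (SE 0.50, 0.43 and 0.53, limma adjusted p = 0.000145, 6.68e-05 and 8.23e-05). Oas1c was at 666 to 762 TPM in the FGOs and 22.0 to 130 TPM in the embryos, Oas1d at 749 to 1001 TPM and 47.3 to 205 TPM, and Oas1e at 1021 to 1269 TPM and 21.1 to 207 TPM. The calls of Oosp1, Oosp3 and Omt2a were lost without any 1 of the 3 K36M FGO libraries, when 4 members were called, and those of Oosp1 without embryo 6 (limma adjusted p = 0.0504) and of Oosp3 without embryo 7 (limma adjusted p = 0.0514) were lost too. With the replicate block 3 members, the Oas1 genes, were called.

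Control and K36M FGOs were compared to ask whether the mutant histone in the growing oocyte changed the stored transcripts. None of the 7 members passed the adjusted threshold in limma, where 0.00726% of 13775 genes (1 gene) did, and 2 members, Oosp1 and Oosp3, had an unadjusted p below 0.05, as did 10.5% of all genes. H3f3b, which holds the mutant allele, was at 293 TPM in control and 398 TPM in K36M FGOs (log2 difference 0.44, limma adjusted p = 0.281). TPM does not separate its mutant from its normal transcripts, so it does not check the genotype.

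Oosp1 was at 1790, 1702 and 1814 TPM in control and at 1587, 1278 and 1068 TPM in K36M FGOs. The groups did not overlap, as in 15.6% of genes tested. The K36M mean was 0.741 of the control mean (log2 difference -0.45, SE 0.12, 95% interval -0.73 to -0.17), with a limma unadjusted p of 0.00585 and an adjusted p of 0.362. The exact permutation p was 0.1, the smallest that 3 against 3 libraries allow. Without K36M replicate 1, which was the highest of the 3 K36M libraries for all 7 members, the difference was -0.60 and the limma adjusted p was 0.0240, while 300 genes in all were then called.

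Oosp3 was at 585, 507 and 523 TPM in control and 537, 396 and 416 TPM in K36M FGOs, with overlapping groups (log2 difference -0.27, SE 0.12, 95% interval -0.54 to -0.0017, limma adjusted p = 0.473). Without K36M replicate 1 its limma adjusted p was 0.0511. The remaining 5 members differed by -0.02 (Oosp2) to 0.08 (Oas1d) on the log2 scale, with limma adjusted p-values between 0.748 and 0.951. Their 95% intervals lay within -0.26 to 0.33, so a doubling or halving of any of them lay outside its interval. The order of the members in K36M FGOs kept Oosp1 first, at 1311 ± 261 TPM, and Oas1e at 1140.4 ± 124 TPM, and here these neighbours overlapped.

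In two-cell embryos, K36M oocyte-derived against control, no member passed the adjusted threshold in limma, and neither did any of the 17362 genes tested (0%). Oosp3 had an unadjusted p below 0.05, as did 7.71% of genes. The median over all genes was -0.26 on the log2 scale, and -0.04 after quantile normalization, and the values of single genes below are given without subtracting it. With the median subtracted, the differences were 0.07 for Oosp1, which changes its sign, -0.46 for Oosp2, -1.80 for Oosp3, 0.80 for Omt2a, 1.07 for Oas1c, 0.44 for Oas1d and 1.34 for Oas1e. All 7 members overlapped between the groups, as did all but 0.115% of genes.

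Oosp3 was at 33.7 to 130 TPM in the 7 control embryos and at 0 to 152 TPM in the 8 K36M oocyte-derived embryos, 4 of which were below the lowest control embryo (log2 difference -2.06, SE 0.95, 95% interval -4.02 to -0.10, limma adjusted p = 0.623). Its exact permutation p was 0.100. The 2 embryos in which it was listed at 0, K36M oocyte-derived embryos 2 and 8, stood apart from the other embryos, with the fewest genes above 0 (10894 and 11178) and the most of the 2239 high FGO genes listed at 0 (109 and 133), and without either the difference was -1.47. Oas1e was at 5.83 to 107.5 TPM in control and 21.1 to 207 TPM in K36M oocyte-derived embryos, with medians of 34.8 and 80.7 TPM (log2 difference 1.09, 95% interval -0.03 to 2.21, limma adjusted p = 0.651), which was 0.72 without control embryo 6. Oas1c had medians of 27.1 and 57.0 TPM (log2 difference 0.81, 95% interval -0.17 to 1.79, limma adjusted p = 0.680).

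Omt2a had medians of 569 and 968 TPM, and 4 of 8 K36M oocyte-derived embryos were above the highest control embryo (log2 difference 0.54, 95% interval -0.20 to 1.28, limma adjusted p = 0.708), which was 0.35 without control embryo 2. Oas1d had medians of 68.2 and 77.4 TPM (log2 difference 0.18, 95% interval -0.71 to 1.07). Oosp1 had medians of 344 and 369 TPM, with a log2 difference of -0.19 and a 95% interval of -1.29 to 0.91, and Oosp2 differed by -0.72 with an interval of -3.08 to 1.65. The direction of Oosp2 rested on the scale: its mean TPM was higher in K36M oocyte-derived embryos, 23.8 against 9.17, with 1 embryo at 148 TPM. Its log2 difference was -1.49 without K36M oocyte-derived embryo 1, -1.23 without embryo 7 of the same group, -0.37 without control embryo 1, -0.44 without control embryo 6, -1.13 without control embryo 5 or 8 and -0.46 without K36M oocyte-derived embryo 2, 4, 5, 6 or 8, and -1.78 with a pseudocount of 0.1. These intervals hold changes of more than a doubling for each of the 7 genes in at least 1 direction, so such changes are not excluded by these embryos. TPM gives a gene's share of a library's RNA, and less transcript per embryo cannot be told apart from more RNA of other genes.

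The genotype-by-stage interaction asked whether the change from FGO to embryo differed between genotypes. No member passed in limma over 17358 genes (0% of all genes, adjusted p = 1.00 for each), and none had an unadjusted p below 0.05, against 1.15% of all genes. The estimates ran from -1.79 for Oosp3 (SE 1.65) to 1.05 for Oas1e (SE 0.84), the latter 0.68 without control embryo 6. That of Omt2a was 0.51 (SE 0.63), and 0.33 without control embryo 2. The 95% intervals of Oosp3 and Oas1e were -5.20 to 1.61 and -0.69 to 2.80, so large differences are not excluded. The fit took a single spread per gene for FGO pools and embryos, although embryos were far more scattered, which limits its p-values.

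The composition of each family was also compared between stages, as the log2 ratio of (TPM + 1) of 2 genes in the same library. Library-wide scaling does not cancel in such a ratio where a gene is near 0, as Oosp2 was in 3 control embryos. In control libraries the log2 ratio of Oosp1 to Oosp2 was 1.91 in FGOs and 5.75 in embryos, and it was above all FGOs in 7 of 7 embryos (difference 3.85, exact permutation p = 0.0167, adjusted p = 0.0389 over 7 pairs). Oosp3 to Oosp2 rose by 3.50, also in 7 of 7 embryos, with the same exact permutation p. Oosp1 to Oosp3 differed by 0.34 (exact permutation p = 0.35). The size of both differences includes the 2 embryos in which Oosp2 was listed at 0, but the lowest embryo, at 4.62 for Oosp1 to Oosp2, was also above the highest FGO library at 2.10.

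In the Oas1 family of control libraries, the ratio of Oas1d to Oas1e turned over. It was -0.47 on the log2 scale in FGOs, where Oas1e was higher in every library, and 1.20 in embryos, where Oas1d was higher in every embryo (difference 1.66, exact permutation p = 0.0167, adjusted p = 0.0389). The embryos ran from 0.24 to 4.03, and the size of the difference leans on the highest, embryo 6, where Oas1e was at 5.83 TPM. Oas1d to Oas1c rose by 0.87, with 6 of 7 embryos above all FGOs (exact permutation p = 0.0333, adjusted p = 0.0583). Oas1c to Oas1e differed by 0.80 (exact permutation p = 0.3). The ratio of Omt2a to Omt2b differed by 0.19 (exact permutation p = 0.467). In K36M libraries no ratio passed, with the smallest adjusted p at 0.170 by exact permutation. There the Oosp1 to Oosp2 difference was 4.80, with 7 of 8 embryos above all FGOs (exact permutation p = 0.0364 before adjustment). Oosp1 to Oosp3 differed by 2.40, also with 7 of 8 embryos above all FGOs (exact permutation p = 0.0485 before adjustment). Both sizes include embryos in which the second gene was listed at 0, which were 5 for Oosp2 and 2 for Oosp3. The Oas1d to Oas1e difference was 0.71, with 5 of 8 embryos above all FGOs (exact permutation p = 0.448). Whether the ratio changes differed between genotypes was not tested.

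**Figure D3:**
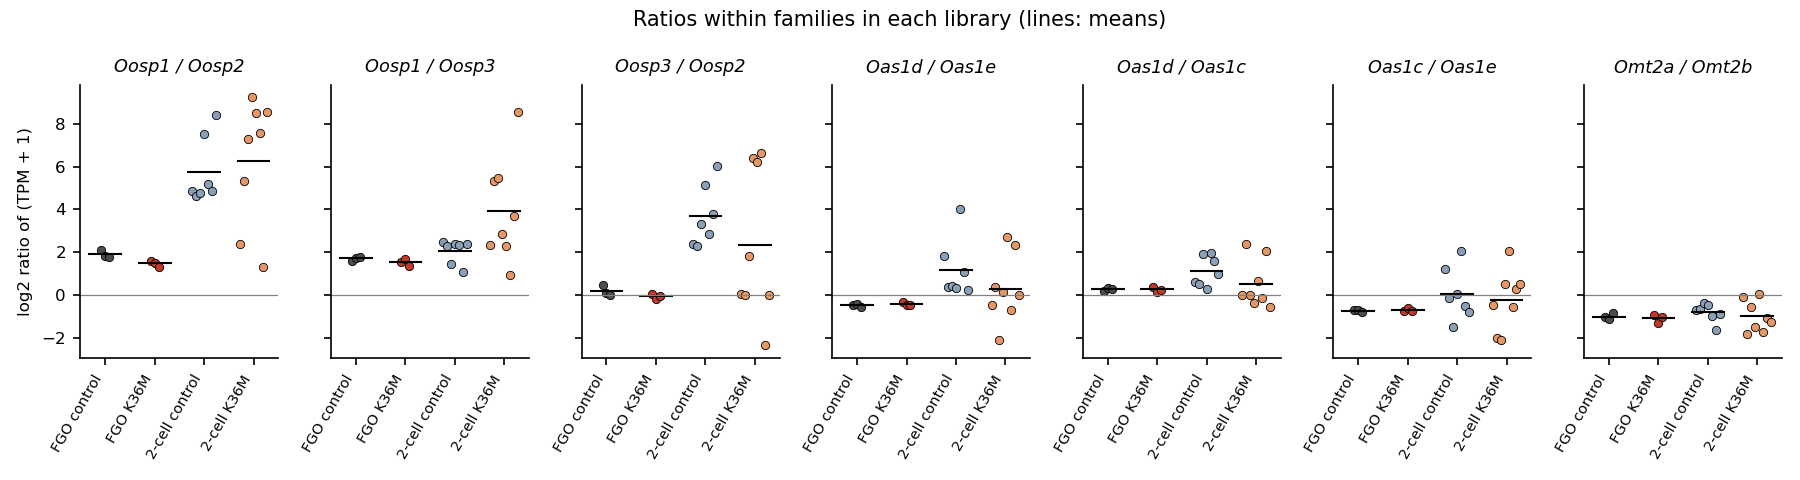
The log2 ratio of (TPM + 1) between 2 genes of the same family in each library of the 4 groups, with lines at the means; above 0 the first gene of the title is the higher one. The Oas1d to Oas1e ratio is below 0 in all 6 FGO libraries and above 0 in all 7 control embryos, and Oosp1 to Oosp2 is above the control FGOs in all 7 control embryos.

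Reads of near-identical genes could not be assigned with the same certainty for each member. Of all 53-base words (the read length) of the longest annotated transcript, 28.7% of those of Omt2a also occurred in a transcript of Omt2b, and 50.4% of those of Omt2b in Omt2a. The share was 14.9% for Oas1c, 9.95% for Oas1e, 4.93% for Oas1d, 1.19% for Oosp3 and 0% for Oosp1 and Oosp2. Oas1d and Oas1e transcripts were identical at 91.1% of aligned bases, whereas the 3 Oosp transcripts shared 55.8% to 57.8%. The split between Omt2a and Omt2b, and in part that among the Oas1 copies, is therefore uncertain. Omt2b was itself higher in embryos, with 928 TPM against 386 TPM in control (log2 difference 1.14, limma adjusted p = 0.0249, 6 of 7 embryos above all FGOs) and 1548 against 415 TPM in K36M (log2 difference 1.77, limma adjusted p = 0.00159).

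The ends of the transcripts were searched for TTTTAT, a form of the cytoplasmic polyadenylation element through which stored oocyte messages are lengthened during maturation. Among the last 100 bases of the longest coding transcript it occurred 2 times in Omt2a, 2 times in Omt2b and 2 times in Oosp3, and not in Oosp1, Oosp2, Oas1c, Oas1d or Oas1e, against 12.9% of 21828 genes. A second form, TTTTAAT, was in none of the 7 members or Omt2b, against 4.65% of genes. The polyadenylation signal AATAAA, which the element usually precedes, was not within these 100 bases in Oas1c, Oas1d or Oas1e, and in Oosp1 it began 93 bases from the end, so in these 4 genes the window hardly covers the stretch in question and nothing is read from the missing match. In Omt2a the matches began 73 and 30 bases from the end. In Oosp3 the matches began 49 and 10 bases from the end, the latter after its AATAAA, which began 19 bases from the end. Whether the motif had a part in the level of any member was not tested.

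The members' place among the oligoadenylate synthetases was examined with the 9 other Oas and Oasl genes of the table. In control FGOs, Oas1h was at 435 TPM, with Oas1f at 40.3 TPM, Oas3 at 9.79 TPM, Oas1b at 9.30 TPM and Oasl1 at 8.38 TPM, and the remaining 4 were below 1 TPM. Among these, Oas1a was at 0.964 TPM, Oas1g at 0.553 TPM and Oas2 at 0.140 TPM, 3 genes named here after their values were seen. From control FGO to embryo 4 of the 6 tested fell and none rose, where 15.5% of all genes fell, with a median of -2.68 beside 0.08 over all genes. In K36M 5 of 6 fell, where 15.4% of all genes did. The log2 difference in control was -5.33 for Oas1h (limma adjusted p = 0.00115) and -2.83 for Oas1f (limma adjusted p = 0.0492).

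**Figure D4:**
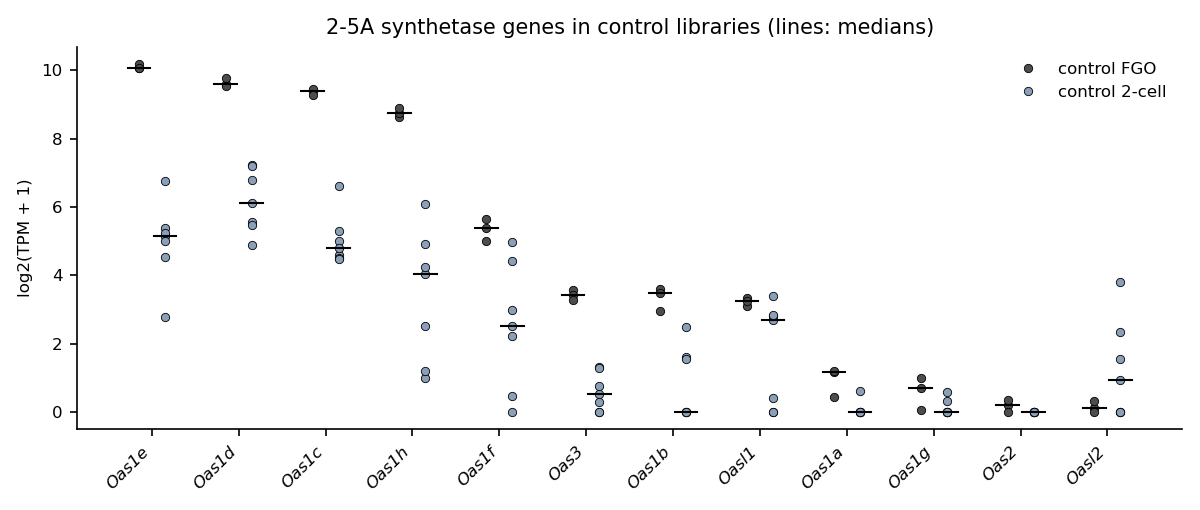
Levels of 12 oligoadenylate synthetase genes on the log2(TPM + 1) scale in 3 control FGO libraries and 7 control two-cell embryos, with 1 point per library and lines at the medians. Oas1e, Oas1d, Oas1c and Oas1h are far above the rest in FGOs, and all 4 are lower in every embryo.

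Of other genes of the pathway, Pde12, a nuclease that degrades 2-5A, was at 35.3 TPM in control FGOs and 59.9 TPM in control embryos (limma adjusted p = 0.207). Abce1, a ribosome recycling factor, rose from 32.9 to 95.7 TPM (log2 difference 1.41, limma adjusted p = 0.0264). Within K36M neither passed (limma adjusted p = 0.523 for Pde12 and 0.359 for Abce1). Of 25 interferon signalling and induced genes, 15 were at 1 TPM or more in control FGOs, led by the kinase Jak1 at 160 TPM, the factor Irf1 at 110 TPM and the RNA editor Adar at 57.2 TPM. From control FGO to embryo, 2 of 19 tested rose and none fell in limma, where 15% of all genes rose: the interferon regulatory factors Irf7, listed at 0 in all control FGOs and at 83.1 TPM in embryos, and Irf9, from 0.222 to 19.2 TPM. The median of this list was -0.08 beside 0.08 over all genes. Within K36M, Irf7 and Stat2 rose and Jak1 fell, of 16 tested, where 9.86% of all genes rose and 15.4% fell (Stat2 log2 difference 1.80, limma adjusted p = 0.0108, Jak1 -1.60, limma adjusted p = 0.0126). No gene of these lists passed the threshold between genotypes at either stage.

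The factors tied to the motifs and the listed maternal genes were compared in the same way. The shares over all genes were 15.5% lower and 15% higher in control and 15.4% lower and 9.86% higher in K36M. Of 5 oocyte transcription factors, 3 fell in both genotypes, and in control these were Nobox (892 to 63.1 TPM), Lhx8 (207 to 35.0 TPM) and Figla (110 to 3.81 TPM). All 7 listed maternal transcripts fell in both, with medians of -4.40 in control and -4.67 in K36M, and in control the falls of Oosp1, Oosp3, Oas1d and Oas1c were smaller than that median and those of Oas1e and Oosp2 larger. In K36M those of Oosp2 and, by a small margin, Oosp3 were larger than the median, and those of Oosp1 and the 3 Oas1 genes smaller. Of 7 genes of embryonic genome activation, 6 rose in control and 5 in K36M.

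Between single embryos, the members differed in how much they varied. In control embryos the SD of log2(TPM + 1) was 0.62 for Omt2a, 0.75 for Oas1c, 0.82 for Oosp3, 0.92 for Oas1d, 1.07 for Oosp1, 1.19 for Oas1e and 1.97 for Oosp2, against the median of 1.26 over all genes. In K36M oocyte-derived embryos Oosp3 and Oosp2 had SDs of 2.96 and 2.89, and Oas1d had the smallest at 0.75. Correlations between members were computed over the 15 embryos after subtracting each genotype's mean, and the points share depth and library composition. Of 21 pairs, 19 had Pearson's r above 0, with a median of 0.15, and none passed the adjusted threshold. The highest was Oosp1 with Oas1c (r = 0.72, permutation p = 0.00529, adjusted p = 0.0981, Spearman's rho = 0.72, permutation p = 0.00504), at 0.60 within control and 0.78 within K36M oocyte-derived embryos and 0.62 without the 2 embryos farthest from the median of Oosp1. Oosp1 with Omt2a, which moved opposite to it between stages, had r = 0.68 (permutation p = 0.00934, adjusted p = 0.0981, Spearman's rho = 0.68, permutation p = 0.0117).

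The genes most like each member across the 15 embryos were ranked by Pearson's r over 17355 genes, with no test and with the members left out. For Oosp1 they were Surf4 (0.95) and Bmt2 (0.93), for Oosp2 Sntg2 (0.93) and Tox (0.91), for Oosp3 Arl8a (0.92) and Neu1 (0.90), and for Omt2a Dbf4 (0.87) and Arl14epl (0.87). For Oas1c they were Fam117b (0.86) and Epn2 (0.84), for Oas1d Mfsd4b4 (0.82) and Dock2 (0.81), and for Oas1e Txndc16 (0.81) and Nckap5l (0.80). Between 2 members r was at most 0.72, for Oosp1 with Oas1c.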

How the data were processed

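The authors trimmed the reads with Trim Galore!, mapped them to mm10 with HISAT2, removed ribosomal reads with bedtools, counted genes with featureCounts and deposited TPM values, the unit used here; their edgeR test on counts was not repeated. The annotation, gene lengths and strand setting used for the TPM are not given in the sources used here. TPM does not hold the reads behind each gene's value. The study lists total reads per library, higher for FGOs than for embryos, and these totals were not used here. All 22 libraries were matched by title and 21 entered the main fits.

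Log2(TPM + 1) was fitted with limma 3.58.1 (R 4.3.3; lmFit, eBayes with trend). Genes averaging 1 TPM or more across the fitted libraries were tested, with Benjamini-Hochberg adjustment over all of them and a threshold of 0.05. Genotypes were compared within a stage and stages within a genotype, in separate fits, and the interaction in 1 fit over 21 libraries. Each main fit took a single spread per gene over all its libraries, also where FGO pools and the more scattered embryos were fitted together. Single genes and ratios were compared by exact permutation, and correlations by 100000 permutations within genotype, in scipy 1.17.1 under Python 3.11.15. The fitting code was first tested on simulated data. Positions and promoters came from RefSeq GRCm38.p6, the assembly of mm10, in which 99.8% of symbols were found, and transcripts from GENCODE M21.

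The members and lists were chosen with earlier results of these data known. All members are named. Of each list, up to 3 genes past the threshold with the smallest p and the 3 with the highest mean in control FGOs were eligible, and neighbours within 50 kb at 1 TPM or more and the 2 most like genes are given. The alternatives were another pseudocount, 2 other filters, 2 scalings, no trend, array weights, a replicate block, control embryo 4 added, each FGO library left out and, chosen after seeing the data, each embryo left out. The members' proteins were not compared. One listed gene is not reported here.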

Additional observations from a re-analysis of the deposited data

Results flagged for a closer look

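Oas1c stood at 96.5 TPM in control embryo 1, far from the other 6 control embryos at 21.2 to 38.1 TPM. It was 1 of 14 groups of embryo values examined in this way, of which chance would mark 0.7.

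Control embryo 4, which the study set aside and no comparison above uses, was above all 7 other control embryos for 5 of the 7 members. It had 923 TPM of Oosp1, 22.4 TPM of Oosp2, 297 TPM of Oosp3, 991 TPM of Omt2a and 107.9 TPM of Oas1c. Oas1d at 112.5 TPM and Oas1e at 100.4 TPM lay between the lowest and highest of the other 7. The margin for Oosp2 was small, with control embryo 1 at 22.3 TPM. Of the 2239 genes high in control FGOs, 50 were listed at 0 in embryo 4. Its median Spearman's rho with the other embryos was 0.69, the lowest of all libraries. The share of all genes that lay above the other 7 embryos in it was not computed, so 5 of 7 is not read as a trait of the members.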

How the results depend on the processing

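Of the members' recomputed differences, 703 kept their direction and side of the threshold, 20 lost significance, 1 gained it and 18 changed sign, the last all among differences that had not passed. From control FGO to control embryo, all 7 members were called in every alternative but the replicate block, where Omt2a had a limma adjusted p of 0.0870. Within K36M the number called was 3 under the replicate block and 4 to 7 with 1 library left out. Oosp1 and Oosp3 each lost their call in 7 of 19 settings, Omt2a in 4 and Oosp2 in 1, and Oas1c, Oas1d and Oas1e in none, their largest limma adjusted p being 0.0319. Between K36M and control FGOs the number was 0 to 1 with 1 library left out, the 1 being Oosp1 without K36M replicate 1. The number of correlated pairs was 2 with control embryo 4 added.

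Some differences changed sign. Between FGOs, leaving out 1 library gave -0.11 to 0.049 for Oosp2, -0.036 to 0.074 for Omt2a, -0.037 to 0.17 for Oas1d and -0.046 to 0.11 for Oas1e, which was -0.0028 with array weights. Between embryos it gave -0.51 to 0.20 for Oosp1 and -0.033 to 0.35 for Oas1d, and in the interaction -0.064 to 0.65 and -0.12 to 0.27 for the same genes.

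Deviations of same-numbered libraries were weakly correlated over genes (Pearson's r -0.10 to 0.10). Between genotypes, 4 of 6 FGO libraries and 2 of 14 embryos were closest to their own number. Between stages it was 1 of 6 libraries in control and 4 of 6 in K36M. These values cannot show whether same-numbered libraries shared a batch, so the replicate block is given as a check. Over all genes, the count called from FGO to embryo went from 5159 to 9396 with array weights and to 3015 to 3056 with 1 control FGO library left out, and in K36M from 4217 to 8212, to 2342 to 2382 with 1 K36M FGO library left out and to 2385 with the block. With median-of-ratios scaling, 2223 genes were higher and 3247 lower in control embryos, against 2539 and 2620. The reads behind each gene's TPM are not known, and values listed at 0 in single embryos limit Oosp2 and Oosp3 most.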
